A study of Mus musculus with 41 samples.

Results

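The genes described here are the integrin subunits and laminin chains of the mouse. Every gene whose symbol begins with Itga, Itgb, Lama, Lamb or Lamc and goes on with a subunit number or letter was taken, which gave 37 genes of the 47480 in the table: 26 integrins (18 alpha and 8 beta subunits) and 11 laminin chains (5 alpha, 3 beta and 3 gamma). RNA was sequenced from 41 untreated Balb/c mammary tumors, 28 of them Plk2-null p53-null and 13 p53-null. The tumors grew from mammary epithelial cells placed in the cleared mammary fat pad of wild-type hosts of the same strain, so host stroma, vessels and leukocytes were sequenced with the tumor cells, and p53 was absent in both groups. Tumors that were passaged by serial transplantation may share a line of origin, and p-values then measure only the spread between these tumors. The names of all p53-null libraries, and of no Plk2-null one, carry a common added word and a number whose meaning the labels do not give, so genotype and what these mark cannot be told apart. The study classed 4 of the tumors as claudin-low, a mammary tumor class poor in tight junction and other epithelial genes: PLK2null-732, PLK2null-733 and PLK2null-743 (Plk2-null p53-null) and p53null-T11 (p53-null). That class was assigned from expression in these same tumors, so the tests below compare tumors that were already known to differ in expression. PLK2null-732, PLK2null-733 and PLK2null-743 were among the most alike pairs of the series (Pearson's r 0.978 to 0.986 over expressed genes). Other Plk2-null tumors were as alike, such as PLK2null-7750 and PLK2null-1984 (0.979). These tumors may not be independent, yet the counts and tests below treat each as a separate tumor.

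Integrins are cell surface receptors made of 1 alpha and 1 beta subunit, and they join the extracellular matrix or a neighbouring cell to the cytoskeleton. Laminins are cross-shaped proteins made of 1 alpha, 1 beta and 1 gamma chain, and they form the sheet of the basement membrane on which epithelial, endothelial and muscle cells rest. In the mammary gland the laminin that holds the Lama3 and Lamb3 chains is anchored by the receptor Itga6-Itgb4 in hemidesmosomes, whereas vessels carry laminins built on Lama4 and Lama5.

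Values are upper-quartile normalized levels, in which the upper quartile of the nonzero genes is 1000 in every tumor. From the smallest steps between values, the tumors held 29409609 to 70868124 fragments each, and 1 read was worth a level of 0.388 to 0.817. A level of 3 reads or fewer (1.16 to 2.45) was treated as the floor, which covers counting error only. Plk2 had a level of 36.6 to 553 in the tumors labelled Plk2-null and 186 to 8028 in the p53-null tumors. Of the p53-null tumors, p53null-7435 had the lowest Plk2, inside the range of the other genotype. The summed level of 6 epithelial marker genes (Epcam, Krt8, Krt18, Cdh1, Cldn3 and Cldn7) was 291, 67.1 and 45.7 in PLK2null-732, PLK2null-733 and PLK2null-743, against 13539 to 119162 in the other 25 Plk2-null p53-null tumors, and was 33742 in p53null-T11. Almost all of the sum in p53null-T11 came from Krt8 (11057) and Krt18 (22508), while its Epcam was 81.4 and its Cdh1 61.9. The sum of 6 endothelial genes (Pecam1, Cdh5, Kdr, Tie1, Esam and Emcn) was 186496, 176854 and 165585 in the same 3 tumors, 6876 in p53null-T11, 78025 in tumor PLK2null-7763 and at most 16463 in every other tumor. All 6 endothelial and all 4 lymphatic endothelial marker genes (Prox1, Lyve1, Flt4 and Mmrn1) were higher and all 6 epithelial genes lower in PLK2null-732, PLK2null-733 and PLK2null-743 than in the other 25 by the test used below, and all 5 pericyte, 5 T cell and 4 B cell genes were higher. In bulk tumors fewer cells of a type and less RNA per cell cannot be told apart. p53null-T11 shared the low Cldn3 (19.9) and Cldn7 (13.8) of the other claudin-low tumors, whose values were 19.3, 6.59 and 1.13 for Cldn3 and 23.6, 9.59 and 4.52 for Cldn7 in PLK2null-732, PLK2null-733 and PLK2null-743, but it had none of their high endothelial levels.

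Sequence before the start site is shown for a gene that was lower in the claudin-low tumors and for a pair of genes that were higher, so that the letters counted below can be seen in place. RefSeq (build GRCm38.p6) gave promoter sequence for 23 of the 37 genes. Each runs 5′ to 3′ on the gene's strand and ends at the base before the start site, except for Lamb1, where the 59 bases nearest the start are exonic in GENCODE and were left out. Capitals mark E-boxes (CACCTG, or CAGGTG on the other strand) and GC boxes (GGGCGG, or CCGCCC on the other strand).

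Itgb5, chr16:33829415-33829664, plus strand: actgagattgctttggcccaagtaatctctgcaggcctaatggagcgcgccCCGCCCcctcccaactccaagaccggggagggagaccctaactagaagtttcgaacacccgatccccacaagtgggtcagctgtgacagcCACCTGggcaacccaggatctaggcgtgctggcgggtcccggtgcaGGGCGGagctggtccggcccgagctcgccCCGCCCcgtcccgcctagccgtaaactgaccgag
Itga5, chr15:103366792-103367041, minus strand: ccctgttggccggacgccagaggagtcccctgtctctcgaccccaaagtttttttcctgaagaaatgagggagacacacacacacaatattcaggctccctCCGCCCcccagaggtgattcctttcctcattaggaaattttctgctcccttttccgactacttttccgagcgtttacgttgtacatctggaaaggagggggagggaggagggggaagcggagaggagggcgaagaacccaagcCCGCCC
Lamb1, chr12:31265043-31265233, plus strand: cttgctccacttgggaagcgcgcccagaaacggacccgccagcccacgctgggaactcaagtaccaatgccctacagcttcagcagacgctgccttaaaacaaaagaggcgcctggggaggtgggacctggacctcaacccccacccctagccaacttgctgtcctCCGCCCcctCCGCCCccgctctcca

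The E-box of Itgb5 lies 109 bases before its start site. Among the 250 bases before each start, an E-box was present in 5 of the 6 members with a promoter that were lower in the claudin-low tumors (Itgb5, Itgb6, Itgb8, Lama5 and Lamb3, but not Itga8), in 0 of the 7 that were higher and in 3 of the 10 that did not pass the test. In Itgb6 and Lamb3 it stood before only 1 of their 2 annotated starts. In both this was the start farther into the gene, and 61 and 149 bases of these windows are exonic. Of all 32851 promoters 17.2% hold it. A GC box was present in 4 of the 7 higher members (Itga4, Itga5, Itgb1 and Lamb1), in 2 of the 6 lower members and in 32.7% of all promoters. The letters TGANTCA were found in 1 of the 23 members (Itgax) and in 6.75% of all promoters, and AACCNGTT in none of the 23 and in 0.928% of all. Both strands were searched, and the E-box and the GC boxes do not overlap in the Itgb5 stretch. Some windows reach into annotated exons. Those of Itgb8 and Itga8 do so along their whole length, that of Itga8 in an exon of E030013I19Rik. These matches describe letters in a window, and they were counted after the levels were known. The calls of Itgb5 and Lama5, which count among the lower members here, were lost when single claudin-low tumors were left out, and Itgb5 was highest of all in p53null-T11, as given below.

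The first comparison asks how the 4 claudin-low tumors differ from the other 37 in these genes, with genotype as a term in the limma fit on log2(level + 1). Of the 37 members, 11 were higher (29.7%) and 9 lower (24.3%) in the claudin-low tumors at a Benjamini-Hochberg adjusted p under 0.05 over the 17208 genes tested, of which 16.1% were called higher and 15.2% lower (31.3% in all). By family, 7 integrins and 4 laminin chains were higher, and 5 integrins and 4 laminin chains lower. The median log2 difference of the members was 0.17, against -0.01 over all genes tested. Within the Plk2-null p53-null tumors alone (PLK2null-732, PLK2null-733 and PLK2null-743 against the other 25), 12 members were higher and 8 lower, beside 20.2% and 17.1% of the 17153 genes tested (37.3% in all). These 2 fits share 3 of the claudin-low tumors and 25 of the others.

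**Figure D1:**
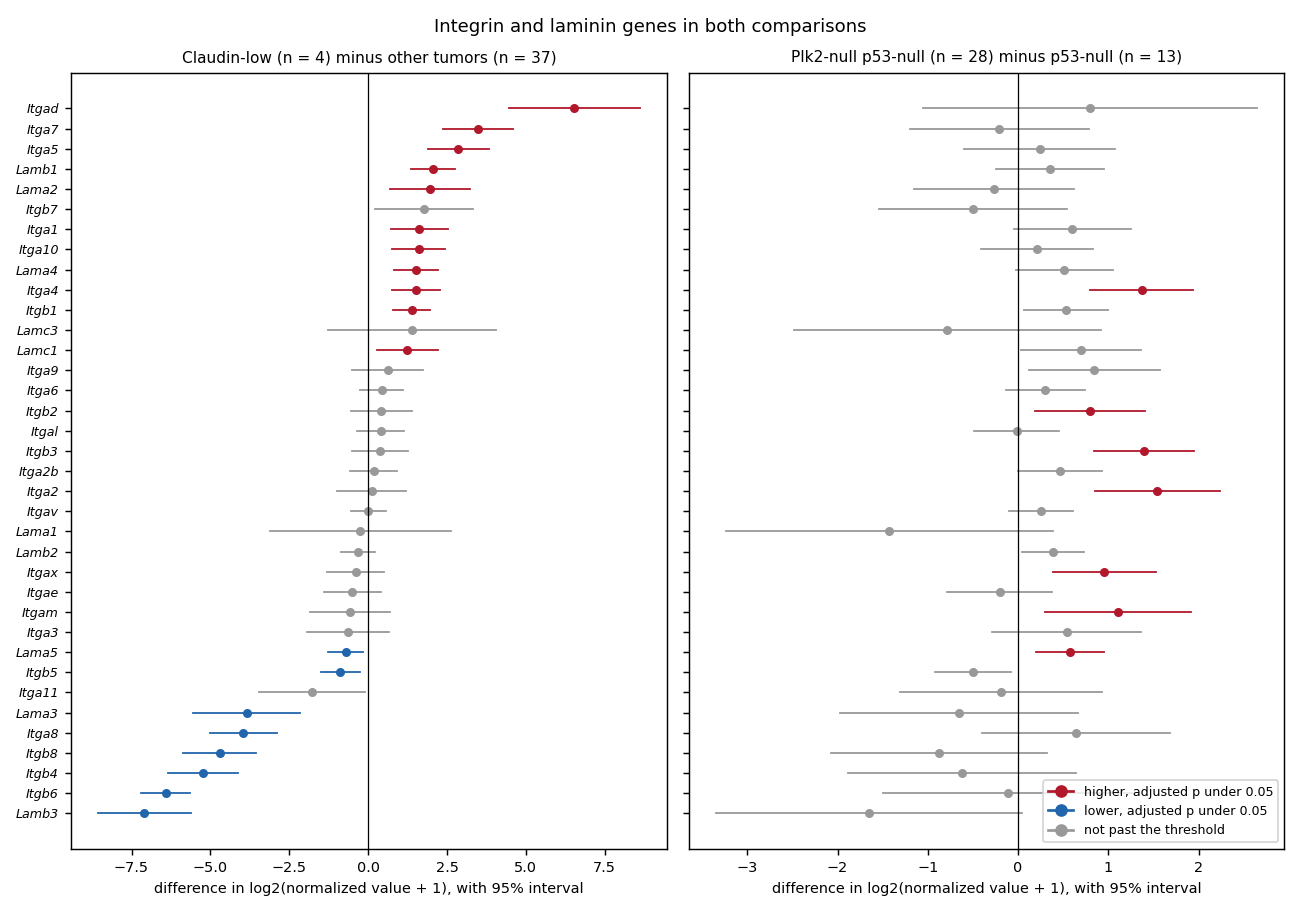
Differences in log2(level + 1) with their 95% intervals for the genes described here, claudin-low against the other tumors on the left and Plk2-null p53-null against p53-null tumors on the right, in the order of the claudin-low difference. Red and blue mark an adjusted p under 0.05 in limma: 11 genes shown were higher and 8 lower on the left, whereas 7 were higher and 0 lower on the right.

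Lamb3 and Lama3, chains of the hemidesmosome laminin, were lower in the claudin-low tumors. Lamb3, the beta chain found in this laminin alone (chromosome 1, 193207699 to 193343878, mm10), was 13.6, 4.79 and 7.34 in PLK2null-732, PLK2null-733 and PLK2null-743 and 20.3 in p53null-T11. In the other 25 Plk2-null p53-null tumors it ran from 145 to 6529.9 with a median of 1400.1, and in the other 12 p53-null tumors from 413 to 16111 with a median of 3133. All 4 claudin-low tumors therefore lay below all 37 others, with a log2 difference of -7.09 (SE 0.72, adjusted p = 3.0e-10 in limma). Lama3, the alpha chain, was 95.2, 59.3 and 33.9 in PLK2null-732, PLK2null-733 and PLK2null-743 and 40.7 in p53null-T11, below the lowest of the other tumors in either genotype (97.1 and 143). The gap to the nearest tumor was small for Lama3, and the log2 difference was -3.85 (SE 0.84, adjusted p = 4.1e-04 in limma). Without tumor PLK2null-743 the call of Lama3 within the Plk2-null tumors was lost (log2 difference -3.19, adjusted p = 0.052).

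Itgb4, the beta subunit that pairs with Itga6 in hemidesmosomes (chromosome 11, 115974709 to 116008412), was 211, 33 and 35 in PLK2null-732, PLK2null-733 and PLK2null-743. It was 1401 in p53null-T11 and 1566 to 14773 in the 37 other tumors. p53null-T11 was thus just below the lowest of the others, which were PLK2null-7763 (1571) among the Plk2-null tumors and a p53-null tumor (1566), while PLK2null-732, PLK2null-733 and PLK2null-743 were far below. The log2 difference was -5.23 (SE 0.55, adjusted p = 7.4e-10 in limma). Its partner Itga6, which also pairs with Itgb1, went the other way in the 3 Plk2-null tumors: 25626, 24442 and 18356, against 4192 to 20876 (median 10056) in the other 25. p53null-T11 had the lowest Itga6 of all 41 tumors, 3495. Over all 4 claudin-low tumors Itga6 had a log2 difference of 0.43 (SE 0.34, adjusted p = 0.35 in limma), and within the Plk2-null tumors it was higher by 1.11 (SE 0.36, adjusted p = 0.015), a call that was lost without PLK2null-732 (adjusted p = 0.086) or PLK2null-733 (adjusted p = 0.076).

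Of the fixed list of 5 hemidesmosome genes, Col7a1, the collagen of anchoring fibrils, was lower in the claudin-low tumors (log2 difference -3.93, SE 0.78, adjusted p = 1.2e-04 in limma). The cytolinkers Dst and Plec were higher by 1.28 and 0.80 (adjusted p = 0.035 and 0.048). Of the remaining genes of the list, Col17a1, a transmembrane collagen of hemidesmosomes, had a difference of -3.55 with an SE of 1.82 (adjusted p = 0.14), and the tetraspanin Cd151 one of 0.19 (adjusted p = 0.52). The median of the list was 0.19.

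Of the beta subunits that pair with Itgav and activate latent TGF-beta, Itgb6, known as an epithelial subunit, came to the floor. It was 1.43, 0.599 and 1.69 in PLK2null-732, PLK2null-733 and PLK2null-743, which is 2, 1 and 3 reads, and 1.73 or 4 reads in p53null-T11. Every other tumor had 36.7 to 379.6. The mean of the other 25 Plk2-null p53-null tumors (221) was 178 times the pooled level of the 3 claudin-low ones, with a 95% counting interval of 81.7 to 484 that covers the 6 reads only. For p53null-T11 the ratio to the other 12 p53-null tumors was 123, with an interval of 48 to 451. The adjusted p in limma was 5.5e-17. The tumor nearest to the claudin-low tumors among the Plk2-null ones was again PLK2null-7763, at 36.7.

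Itgb8, the other subunit of this kind, was 10.7, 10.8 and 6.78 in PLK2null-732, PLK2null-733 and PLK2null-743. The other 25 Plk2-null p53-null tumors ran from 167 to 1780.1, and p53null-T11, at 190.0, lay inside the p53-null range of 128 to 2119. The log2 difference over all claudin-low tumors was -4.71 (SE 0.58, adjusted p = 2.9e-08 in limma). Itgav itself, their alpha partner, was 2791, 2613 and 2568 in the 3 tumors and 5593 in p53null-T11, and its log2 difference was 0.01 (SE 0.28, adjusted p = 0.99, 95% interval -0.56 to 0.57). That value joins a difference of -0.37 in the 3 Plk2-null tumors and 1.08 in p53null-T11, whose Itgav was above the other 12 p53-null tumors (at most 4894). Within the Plk2-null tumors Itgav did not pass the test (adjusted p = 0.35 in limma), while both beta subunits were lower there. Itgb5, a vitronectin receptor subunit that also pairs with Itgav, was 1171, 1277 and 1689 in PLK2null-732, PLK2null-733 and PLK2null-743, below every other Plk2-null tumor (2283 to 8223). In p53null-T11 it was 10677, the highest of all 41. Its log2 difference over the 4 was -0.88 (SE 0.30, adjusted p = 0.024 in limma) and lost its call without PLK2null-732, PLK2null-743 or PLK2null-733 (adjusted p = 0.21, 0.11 and 0.19). Within the Plk2-null tumors it was -1.58 (SE 0.28, adjusted p = 6.3e-05).

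Itga8, which pairs with Itgb1 and binds nephronectin and fibronectin, was 60.8, 108 and 97.1 in the 3 Plk2-null tumors and 119 in p53null-T11. The other tumors had 266 to 4342, again with no overlap, and the log2 difference was -3.96 (SE 0.53, adjusted p = 1.5e-07 in limma). Lama5, a laminin alpha chain of epithelial and vessel basement membranes, was 7592, 6319 and 3392 in PLK2null-732, PLK2null-733 and PLK2null-743 and 2405 in p53null-T11, the lowest of all 41. Its log2 difference was -0.71 (SE 0.28, adjusted p = 0.046 in limma) and missed the threshold without p53null-T11 (adjusted p = 0.20), PLK2null-743 (0.24) or PLK2null-733 (0.054). In all, 5 members (Itga8, Itgb4, Itgb6, Lama3 and Lamb3) had all 4 claudin-low tumors below all others, beside 2.96% of the genes tested, and 1 (Itgb1) had all 4 above, beside 0.976%. Within the Plk2-null tumors 8 members had all 3 below (8.87% of the genes tested) and 6 all 3 above (11.1%).

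**Figure D2:**
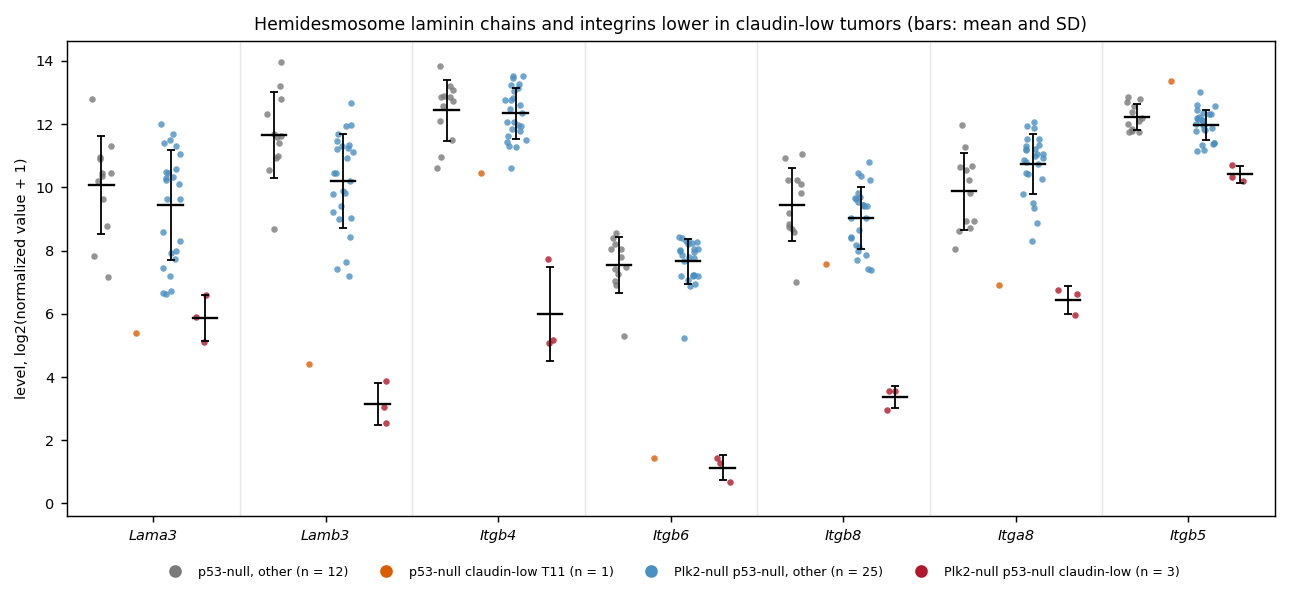
Levels of 7 genes lower in the claudin-low tumors, as log2(level + 1), with 1 point per tumor and bars for the mean and SD of each group (p53null-T11 is 1 tumor and has none). For Lamb3 and Itgb6 all 4 claudin-low tumors lie together below the rest, whereas for Itgb4, Itgb8 and Itgb5 the 3 Plk2-null tumors lie below p53null-T11.

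The 11 higher members were Itgad, Itga7, Itga5, Lamb1, Lama2, Itga1, Itga10, Lama4, Itga4, Itgb1 and Lamc1. Itgb1, the most widely shared beta subunit (chromosome 8, 128685654 to 128733200), was 51669.9, 48730.2 and 37962 in PLK2null-732, PLK2null-733 and PLK2null-743 and 45228 in p53null-T11. The highest of the other tumors was 34690.0. The log2 difference was 1.39 (SE 0.29, adjusted p = 2.6e-04 in limma). Itga5, which forms the fibronectin receptor with Itgb1 (chromosome 15, 103344286 to 103366763), was 13559.5, 9467 and 10793 in the 3 tumors and 17472 in p53null-T11, the highest of the series. The other Plk2-null tumors reached 10859 and the other p53-null tumors 5652, so that the groups overlapped through tumor PLK2null-1973 alone. Its log2 difference was 2.86 (SE 0.48, adjusted p = 1.0e-05). Itga7, a laminin receptor subunit best known from muscle, was 920.1, 1163 and 1343 and reached 5990.2 in p53null-T11. The other p53-null tumors had at most 521 and the other Plk2-null tumors at most 1495 (tumor PLK2null-1974), and the log2 difference was 3.49 (SE 0.55, adjusted p = 3.9e-06).

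Lamb1, the beta chain of many laminins, was 23032, 22004 and 15582 in PLK2null-732, PLK2null-733 and PLK2null-743 and 22991 in p53null-T11. The other Plk2-null tumors ran from 2009.8 to 15974 with a median of 5450.2, so only PLK2null-743 was within their range, and the log2 difference was 2.06 (SE 0.34, adjusted p = 9.7e-06 in limma). Lamc1, the gamma chain shared by most laminins, was 41346, 39482 and 27274 in the 3 Plk2-null tumors but 7576 in p53null-T11. The highest value of all, 49766, was in tumor PLK2null-1964, which is not claudin-low, and PLK2null-7763 had 33968. The log2 difference of Lamc1 was 1.24 (SE 0.48, adjusted p = 0.045) and did not stay under the threshold without PLK2null-732, PLK2null-743 or PLK2null-733 (adjusted p = 0.18, 0.11 and 0.17). Within the Plk2-null tumors Lamc1 was higher by 1.68 (SE 0.57, adjusted p = 0.021), and without PLK2null-732 or PLK2null-733 that call was lost (adjusted p = 0.099 and 0.092).

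Lama4, the laminin alpha chain of vessel walls (chromosome 10, 38965515 to 39110188), was 19161, 18828 and 17474 in PLK2null-732, PLK2null-733 and PLK2null-743. The next tumor was PLK2null-7763 at 8384, the other 24 Plk2-null tumors were lower still, and p53null-T11 had the lowest level of all 41 at 1677. Within the Plk2-null tumors the log2 difference was 2.36 (SE 0.32, adjusted p = 9.7e-07 in limma). Lama2, the alpha chain of muscle and nerve laminin, was 959, 1389 and 1341 in the 3 tumors and 115 in p53null-T11, against 35.7 to 717 in the other Plk2-null tumors, where the highest was again PLK2null-7763. Its difference within the Plk2-null tumors was 2.99 (SE 0.59, adjusted p = 1.9e-04). Over all 4 claudin-low tumors Lama4 and Lama2 were higher by 1.53 and 1.95 (adjusted p = 6.7e-04 and 0.015), and the call of Lama2 was lost without PLK2null-732, PLK2null-743 or PLK2null-733 (adjusted p = 0.075, 0.10 and 0.11).

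Itga1, a collagen receptor subunit, was 2126, 2635 and 1737 in PLK2null-732, PLK2null-733 and PLK2null-743, 1151 in PLK2null-7763, 189 in p53null-T11 and at most 963 elsewhere. It was higher by 2.45 within the Plk2-null tumors (SE 0.31, adjusted p = 3.5e-07 in limma). Over all 4 tumors its difference of 1.63 had an adjusted p of 0.0039, which became 0.057 without PLK2null-733. Itga4, which pairs with Itgb1 or Itgb7 and binds Vcam1 and fibronectin, was 791, 961 and 920.4 in the same 3 tumors, above all 25 others (at most 544), and 202 in p53null-T11. Its log2 difference within the Plk2-null tumors was 1.74 (SE 0.36, adjusted p = 3.3e-04), and 1.51 over all 4. Itga9, known from lymphatic vessels and myoepithelium, was 7289, 7694 and 7322 in the 3 tumors, which PLK2null-1984 and PLK2null-1985 exceeded (8384 in the former), and 305 in p53null-T11, the lowest of all. Within the Plk2-null tumors it was higher by 1.68 (SE 0.61, adjusted p = 0.031), which was lost without any 1 of PLK2null-732, PLK2null-743 and PLK2null-733 (adjusted p = 0.097, 0.096 and 0.11). Itga10, a collagen receptor subunit of cartilage, was 1352 in p53null-T11 and 25.7 to 217 in all other tumors, and its call over the 4 claudin-low tumors (log2 difference 1.61, adjusted p = 0.0026) was lost without p53null-T11 (0.56, adjusted p = 0.24). About 33.5% of the exon bases of Itga10 are shared with Gm42957, so its level is uncertain.

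The endothelial sum was highest in the 3 tumors with the highest Lama4, Itga1, Itga4 and Lama2, and PLK2null-7763, with the fourth highest endothelial sum, had the fourth highest Lama4 and Itga1. The pericyte sum moved with them (80618, 94363 and 84063 in PLK2null-732, PLK2null-733 and PLK2null-743, 31514 in PLK2null-7763, and 6425 in p53null-T11). The part of these cells in the laminin and integrin levels was not tested. p53null-T11 had an endothelial sum of 6876 and none of its Lama4, Lama2, Itga1 or Itga9 levels was above the p53-null range, whereas its Itga5, Itga7, Itgb1 and Lamb1 levels were.

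**Figure D3:**
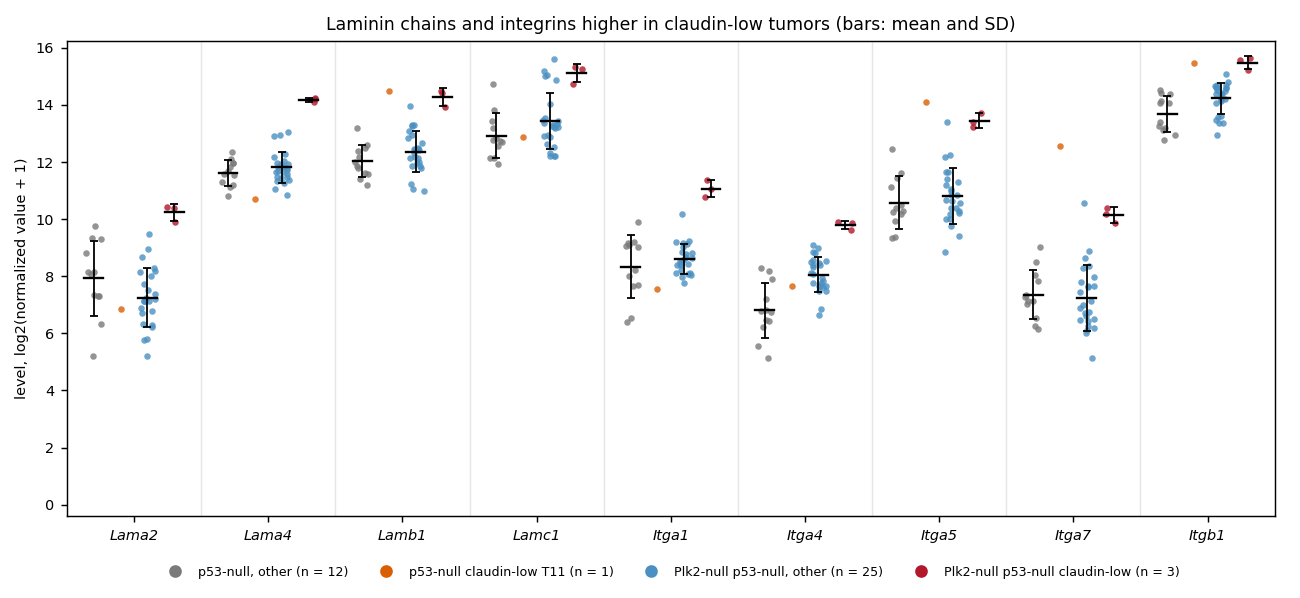
Levels of 9 genes higher in the claudin-low tumors, as log2(level + 1), with 1 point per tumor and bars for the mean and SD of each group (p53null-T11 has none). p53null-T11 sits with the other claudin-low tumors for Itga5, Itgb1 and Lamb1 and above them for Itga7, but below the p53-null range for Lama4 and inside it for Itga1.

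Itgad, a leukocyte integrin alpha subunit, had the largest difference of the members within the Plk2-null tumors. It was 876, 1337 and 1484 in PLK2null-732, PLK2null-733 and PLK2null-743 and 276 in tumor PLK2null-7763, and it was at or below the floor in 27 of the other tumors, p53null-T11 included (listed at 0). The remaining 10 tumors stayed at or below 11.8. Within the Plk2-null tumors the fitted log2 difference was 9.23 (SE 0.91, adjusted p = 5.6e-09 in limma), a value that depends on the pseudocount of 1. Its neighbours on chromosome 7, Itgam and Itgax, which share its structure, did not move with it: Itgam was 323, 228 and 499.6 in the 3 tumors against a median of 1216 in the other 25, and Itgax 1059, 991 and 1391 against 1220.0. Neither passed the test (adjusted p = 0.13 and 0.99). Their common beta subunit Itgb2 was 868, 988 and 1388 against a median of 883 (log2 difference 0.46, SE 0.54, adjusted p = 0.53). About 19.7% of the exon bases of Itgad overlap other annotated genes, of which only Cox6a2 has a level in these data. The sum of 6 macrophage genes was 13240, 12472 and 19826 in PLK2null-732, PLK2null-733 and PLK2null-743, inside the range of the other 25 (5560.4 to 42947).

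The other leukocyte and platelet subunits did not pass the test in either claudin-low fit. Itgal, the lymphocyte subunit, was 410.3, 463 and 533 in the 3 tumors against a median of 270.1 (log2 difference 0.78, SE 0.35, adjusted p = 0.080 in limma). Itgb7, the beta subunit of gut-homing lymphocytes, was 181, 317 and 369.9 against a median of 47.4, but tumor PLK2null-1974 reached 1771 (log2 difference 2.14, SE 0.93, adjusted p = 0.071). Itgae, Itgb3, Itga2b, Itga2, Itga3, Itgav, Itga11, Lama1, Lamb2 and Lamc3 were also not called in the main fits. Of these, Lamc3 and Lama1 ran from 0.687 to 5089.9 and from 7.97 to 4418 over the 41 tumors. Itga11, a collagen receptor subunit of fibroblasts, was 9.31, 3.0 and 158 in PLK2null-732, PLK2null-733 and PLK2null-743, so that PLK2null-743 stood apart from the others, and without PLK2null-743 it was lower within the Plk2-null tumors (log2 difference -3.53, adjusted p = 0.0076). The fibroblast marker sum was 13931 in PLK2null-743 and 3146 and 1643 in PLK2null-732 and PLK2null-733.

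p53null-T11 and the Plk2-null claudin-low tumors could be compared through the interaction of class and genotype, with the reservation that the p53-null side is p53null-T11 alone, assumed to vary like the other tumors. Of the 37 members, 6 had a higher claudin-low difference in the 3 Plk2-null tumors than in p53null-T11 and 5 a lower one, beside 6.54% and 3.43% of the 17208 genes tested (9.97% in all). The median interaction of all genes was 0.19, and it shifted by -0.26 under both TMM and quantile scaling, where 53.8% and 55.0% of the genes called were higher against 65.6% in the deposited scaling. The higher ones were Itgad, Itga9, Lama2, Lama4, Itga1 and Itga6. For Lama4 the claudin-low difference was 2.36 in the Plk2-null tumors and -0.91 in p53null-T11 (interaction 3.27, SE 0.61, adjusted p = 4.2e-04 in limma). For Itga9 it was 1.68 and -2.45 (interaction 4.13, SE 1.12, adjusted p = 0.014), and for Itga6 1.11 and -1.52 (interaction 2.63, SE 0.66, adjusted p = 0.0075). Itgb4, Itga10, Itgb8 and Itgb5 were among the lower ones. Itgb4 differed by -6.35 and -1.98 (interaction -4.37, SE 1.07, adjusted p = 0.0063), Itga10 by 0.56 and 4.65 (interaction -4.09, SE 0.71, adjusted p = 2.1e-04) and Itgb5 by -1.58 and 1.15 (interaction -2.73, SE 0.55, adjusted p = 0.0010). The interactions of Lama2 and Itgb8 were lost without PLK2null-732 (adjusted p = 0.053 for both), PLK2null-743 (0.071 and 0.076) or PLK2null-733 (0.075 and 0.054). That of Itgb8 was also lost with a pseudocount of 10 (-2.96, adjusted p = 0.10), and that of Lama2 after quantile normalization (3.50, adjusted p = 0.059). Lamb3 and Itgb6 were low on both sides, with interactions of 0.20 (SE 1.67, 95% interval -3.19 to 3.58) and -0.44 (SE 0.90, 95% interval -2.25 to 1.37) that did not pass the test.

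**Figure D4:**
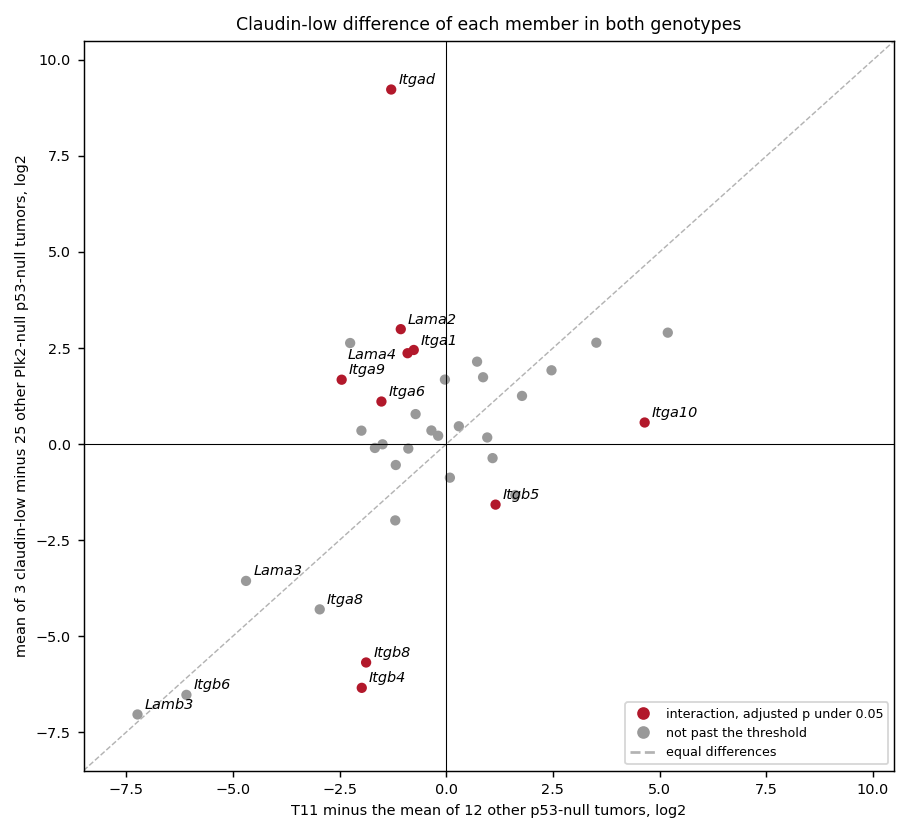
Claudin-low difference of each gene in log2(level + 1), p53null-T11 against 12 p53-null tumors on the horizontal axis and 3 tumors against 25 on the vertical axis. The red genes passed the interaction test in limma, with Lama2, Lama4, Itga1, Itga6, Itga9 and Itgad above 0 on the vertical axis and below 0 on the horizontal one, while Lamb3, Itgb6, Lama3 and Itga8 are below 0 on both.

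The partners of these genes came from lists of basement membrane genes, integrin adaptors and ligands. Of 12 basement membrane genes, 7 were higher and 3 lower over the 4 claudin-low tumors (median 1.54). Nid2, which links laminin to collagen IV, was higher by 4.29, and Hspg2, which encodes perlecan, by 2.84 (adjusted p = 1.5e-07 and 5.9e-07 in limma). The collagen IV chain Col4a1 was higher (2.21), and the chains Col4a5 and Col4a6 were lower (-2.54 and -5.87). Col4a1 was 230628, 177292 and 167989 in PLK2null-732, PLK2null-733 and PLK2null-743 but 26329 in p53null-T11. Its interaction of class and genotype was 3.455, not past the threshold. The laminin receptor Dag1 was lower (-1.81). Of 22 adaptors, 12 were higher and 3 lower (median 0.89). Fermt1, the epithelial kindlin, was lower (log2 difference -6.49, SE 0.66, adjusted p = 3.0e-10). Tns4 and Tln2 were lower too (-5.44 and -1.92), while Parvb, Tns1 and Tns2 had the largest differences upward (4.29, 2.48 and 1.70). Of 12 other ligands, 6 were higher and 2 lower (median 1.26). The vessel counter-receptors Madcam1 and Icam2 were higher by 7.12 and 4.89, as was vitronectin, Vtn, by 3.05, and Cdh1, the epithelial cadherin bound by Itgae-Itgb7, was lower (-8.66). Madcam1 was 8408, 11672 and 9326 in PLK2null-732, PLK2null-733 and PLK2null-743, 3085 in PLK2null-7763 and at the floor in p53null-T11. For 5 of these genes and for Col7a1 the difference of the 3 Plk2-null tumors was not that of p53null-T11. The interaction was 11.87 for Madcam1, 5.76 for Icam2, 5.69 for Vtn and 2.65 for Hspg2 (adjusted p = 0.0012, 0.0033, 0.0088 and 0.036), and -6.10 for Col7a1 and -5.64 for Fermt1 (adjusted p = 0.0070 and 0.0024). In p53null-T11 Icam2 was 225 and Vtn 8.22, whereas PLK2null-732, PLK2null-733 and PLK2null-743 had 9172, 9228 and 8722 of Icam2 and 121, 450.0 and 411 of Vtn.

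The second comparison asks how Plk2-null p53-null and p53-null tumors differ in these genes. In limma over all 41 tumors, 7 members were higher in the Plk2-null tumors (18.9%) and 0 lower, beside 24.3% and 15.3% of the 17208 genes tested (39.5% in all). At an unadjusted p under 0.05, for which no share over all genes was counted, 12 were higher and 1, Itgb5, was lower. The members higher were Itga2, Itgb3, Itga4, Itgam, Itgax, Itgb2 and Lama5. In the upper-quartile scaling the median log2 difference of all genes was 0.10 and under a trimmed-mean (TMM) scaling -0.02, a shift of -0.12. Of all the genes called, 61.4% were higher in the deposited scaling, 48.3% after TMM and 51.7% after quantile normalization. With TMM 4 members were higher and 1 lower (Itgb5, log2 difference -0.62, adjusted p = 0.028), beside 3325 and 3553 of the 17179 genes tested. With quantile normalization 6 were higher, Itgb1 (0.73, adjusted p = 0.0086) among them, and 0 lower, beside 3488 and 3263 of 17234 genes.

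Itga2, the collagen receptor subunit of epithelium and platelets, ran from 95.8 to 786 in the 28 Plk2-null tumors (median 300.0) and from 12.7 to 296 in the 13 p53-null tumors (median 92.4). Of the 28, 15 lay above every p53-null tumor, and the log2 difference was 1.55 (SE 0.34, adjusted p = 3.5e-04 in limma), or 1.45 above the median of all genes. Itgb3, which pairs with Itgav, ran from 542 to 6074 (median 2383) and from 229.9 to 2374 (median 1034). Its log2 difference was 1.39 (SE 0.28, adjusted p = 7.7e-05), with 14 of 28 tumors above every p53-null one. Itga4 ran from 99.7 to 961 (median 297) and from 34 to 309.6 (median 109), and its difference was 1.37 (SE 0.28, adjusted p = 1.3e-04). These 3 subunits kept their calls under TMM and quantile scaling, with log2 differences of 1.21 to 1.43. The usual partners did not pass: Itgb1 of Itga2 and Itga4 had 0.53 (adjusted p = 0.060) and Itgav of Itgb3 0.25 (adjusted p = 0.26), with overlapping groups. Of the 2 platelet genes tested, Gp1ba was higher in the Plk2-null tumors by 0.86 (adjusted p = 6.6e-04) and Pf4 had -0.46 (adjusted p = 0.45), and the part of platelets in the Itga2 and Itgb3 values was not tested.

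Of the leukocyte integrins, Itgam, the myeloid subunit of complement receptor 3, ran from 119 to 2040.2 (median 1061) in the Plk2-null tumors and from 42.5 to 1034 (median 307) in the others. The log2 difference was 1.11 (SE 0.40, adjusted p = 0.024 in limma). Itgax and Itgb2, its dendritic counterpart and their shared beta subunit, had differences of 0.96 and 0.80 (adjusted p = 0.0063 and 0.032). Itgal, the lymphocyte partner of Itgb2, had -0.02 (SE 0.23, 95% interval -0.49 to 0.45, adjusted p = 0.96). The groups overlapped for all 4, with 15, 10 and 3 of the 28 Plk2-null tumors above every p53-null one for Itgam, Itgax and Itgb2. The summed level of 5 neutrophil genes had a median of 1174 in the Plk2-null and 325 in the p53-null tumors (236 to 3011 and 123 to 3077). Of those 5 genes Csf3r and Cxcr2 were higher (1.33 and 1.97, adjusted p = 0.0016 and 0.0021) and none lower, while of 6 macrophage genes Cd68 was higher and none lower. The part of these cells in the Itgam, Itgax and Itgb2 values was not tested. After TMM the adjusted p of Itgam and Itgb2 was 0.054 and 0.081, after quantile normalization 0.053 and 0.088, and without the 4 claudin-low tumors that of Itgb2 was 0.054. Relative to the median of all genes the log2 differences were 1.01 for Itgam and 0.70 for Itgb2, both in the deposited scaling and after TMM. About 68.7% of the exon bases of Itgam are shared with the annotated gene Gm49368. That gene has no level in these data, so how shared reads were counted is not known and the level of Itgam is uncertain.

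Lama5 was the laminin chain called by genotype, with 3392 to 15473 (median 7723) in the Plk2-null and 2405 to 10098 (median 5786) in the p53-null tumors. The log2 difference was 0.58 (SE 0.19, adjusted p = 0.013 in limma), and 0.45 after TMM (adjusted p = 0.053). Lamb3 was lower in the Plk2-null tumors only when the 4 claudin-low tumors were left out (log2 difference -1.46, adjusted p = 0.017), and with them had -1.65 (SE 0.84, adjusted p = 0.11). Without them Itga8 and Itgb1 were higher too (0.88 and 0.54, adjusted p = 0.045 and 0.028). When only the 7 Plk2-null tumors whose numbers stand in the study's plot of primary tumor latency were set against the 13 p53-null tumors, 0 members passed in either direction in limma, 3 were higher and 1 lower at an unadjusted p under 0.05, and the log2 differences of the 7 genes ran from 0.23 (Itgb2) to 1.47 (Itga2). Leaving out the library labelled p53null-7435 gave 10 higher and 0 lower, with Lamc1, Lamb2 and Itga9 added, beside 4312 and 2493 of the 17195 genes tested. Of the partner lists, 1 basement membrane gene, 1 hemidesmosome gene, 3 adaptors and 1 ligand were higher, and 1 basement membrane and 1 hemidesmosome gene lower: Dst, a cytolinker of hemidesmosomes, by 2.36, Npnt, the ligand of Itga8, by 2.14, Nid1, Vcl, Pxn and Rsu1 by 0.86 or less, and Col17a1 and Bcam lower (-4.01 and -1.59). Of the marker genes of other cells, 2 of 4 basal epithelial genes were lower in the Plk2-null tumors, Krt5 and Krt14, with log2 differences of -5.13 and -3.06 (adjusted p = 0.0080 and 0.030). Also lower were 1 of 3 myoepithelial genes (Acta2, -1.49, adjusted p = 0.027), 1 of 5 fibroblast genes (Dpt, -2.13, adjusted p = 0.0020) and all 3 skeletal muscle genes tested (Acta1 -2.89, Myh4 -2.60 and Ckm -2.26, adjusted p = 0.0096, 0.035 and 0.023). Of 5 pericyte genes 1 was higher (Abcc9, 1.27, adjusted p = 0.026). The part of these cells in the Col17a1, Lamb3 and other genotype values was not tested.

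**Figure D5:**
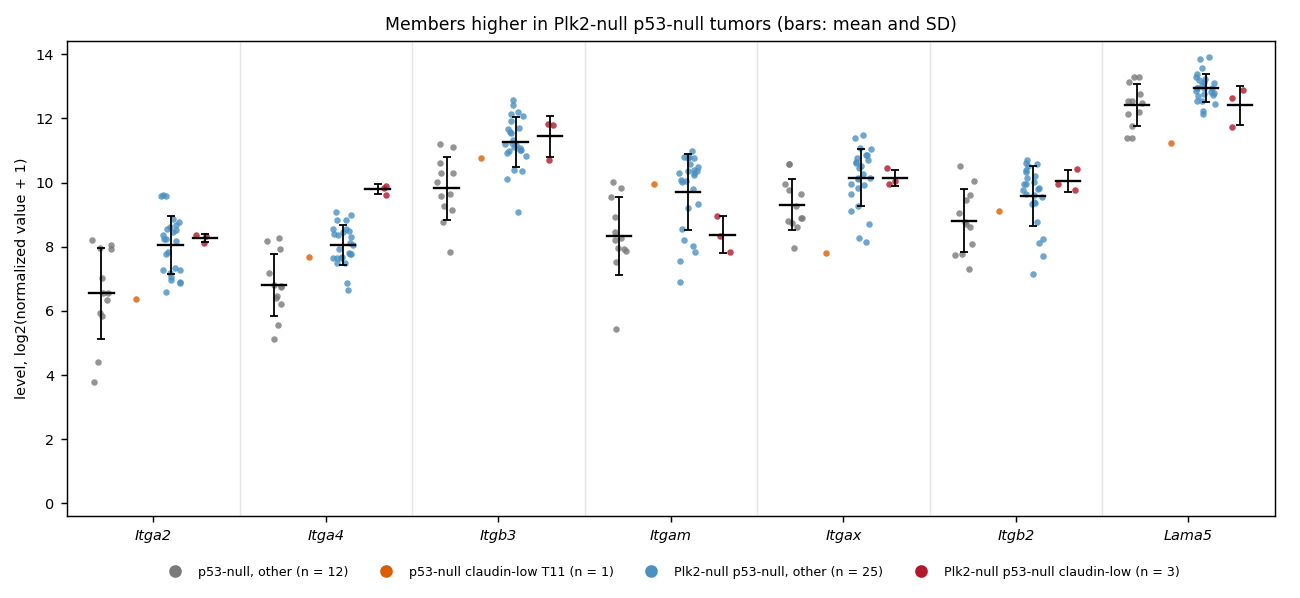
Levels of the 7 genes higher in Plk2-null p53-null tumors, as log2(level + 1), with 1 point per tumor and bars for the mean and SD of each group (p53null-T11 has none). The groups overlap for every gene, and the widest gaps between the grey and blue points are those of Itga2, Itga4 and Itgb3.

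Levels of different genes can be set side by side per kilobase of merged exon. In the 28 Plk2-null tumors Itgb1 stood first of the beta subunits with a median of 5426 per kb (1942 to 12661), followed by Itgb5 (1140.0) and Itgb4 (609). Itga6 led the alpha subunits at 1361 per kb, followed by Itga3 (773) and Itga5 (373), and Lamc1 led the laminins at 1239, with Lama5 at 678. In the 13 p53-null tumors these leading integrins stood in the same order, with Itgb1 at 4189 and Itga6 at 1052 per kb, and Lamc1 was at 853. Per kb of the longest transcript, Itgav (385) stood above Itga5 (301) in the p53-null tumors. The ranges of neighbours in these orders overlapped in each genotype, those of Itgb1 and Itgb5 in the Plk2-null tumors only between 1942 and 2314 per kb. In PLK2null-732, PLK2null-733 and PLK2null-743 the order of the laminins was Lamc1 (median 4773 per kb), Lamb1 (2219) and Lama4 (1560.2), with Lamb3 at 1.11.

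Subunits that form 1 protein were compared across tumors within each genotype without the claudin-low tumors, as a description on the log2 scale, since tumors may share a line and both genes of a pair share their libraries. Of 20 pairs, Itgam and Itgb2 had the highest Pearson's r, 0.92 (Spearman's rho 0.81) over 25 Plk2-null and 0.84 (0.86) over 12 p53-null tumors. Without the 2 tumors farthest from the median their r was 0.87 and 0.74. In the p53-null tumors Itgae and Itgb7 (0.93) and Itga4 and Itgb7 (0.76) were then higher. Lama3 and Lamb3 had an r of 0.65 (rho 0.59) in the Plk2-null tumors and 0.79 (rho 0.58) in the p53-null tumors. Itga6 and Itgb4 had -0.37 (rho -0.36) and 0.42 (rho 0.29). Itga5 and Itgb1 had 0.60 (rho 0.43) and 0.72 (rho 0.76). Over only the 7 Plk2-null tumors numbered in the latency plot, Itgam and Itgb2 had 0.92 (rho 0.96) and Lama3 and Lamb3 0.19 (rho 0.50). Itgal and Itgb2 had a higher r there, 0.97 (rho 0.82). In these 7, Itga6 and Itgb4 had -0.50 (rho -0.82) and Itga5 and Itgb1 0.72 (rho 0.36).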

How the data were processed

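RNA was sequenced from 41 mouse mammary tumors, 28 Plk2-null p53-null and 13 p53-null. Per the labels and the submitters' processing notes, reads were aligned with STAR 2.7.6a (build mm10) and quantified with Salmon 1.4.0, with SAMtools and Picard 2.22.4 also named; the annotation and the strand setting are not given in the sources used here. The deposited table holds a linear signal, the gene counts estimated by Salmon that the authors divided by each tumor's upper quartile, and no comparison columns. The upper quartile of nonzero values was 1000 in each tumor, and 0 columns were left unused. Whole reads could not be recovered, since 77.9% to 80.5% of nonzero values lay within 0.1 read of a whole number.

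Groups came from the labels. The claudin-low class of 4 tumors came from the study. The members, the lists and this class were chosen with earlier results of these data known. Every integrin and laminin gene was a member; 1 of them is not reported here, though counts over the members include it. Named in full were at most 12 called members per comparison with the largest log2 differences, with their partner subunits; other called members were added where a result turned on them. At most 3 called genes per direction were named from each partner list, plus genes without a call where the text says so.

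Tests used limma (version 3.58.1, run under R 4.3.3) with a constant prior variance, after adding 1 to each level and taking log2, over genes whose mean was at least 10, and p-values were adjusted by Benjamini-Hochberg over all of them at a threshold of 0.05. The same code was tested on simulated data. Other scalings, filters and pseudocounts and the omission of single tumors were tried. Levels per kilobase used merged exons of GENCODE on mm10. Values were handled with Python 3.11.15, numpy 2.4.6, pandas 2.3.3, scipy 1.17.1 and matplotlib 3.10.9.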

Additional observations from a re-analysis of the deposited data

Results flagged for a closer look

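Among the 4 claudin-low tumors, 1 tumor stood apart from the other 3 by Dixon's test at the 95% level for 14 members. For 13 of them it was p53null-T11, which had an Itga1 level of 189, an Itga2 level of 80.9, an Itga4 level of 202, an Itga6 level of 3495, an Itga9 level of 305, an Itgad level listed at 0, a Lama2 level of 115, a Lama4 level of 1677 and a Lamb2 level of 1726, all below the other 3. It lay above them for Itga10 (1352), Itgav (5593), Itgb5 (10677) and Itgb8 (190.0). For Lamb1 it was PLK2null-743, with 15582. Among the 7 Plk2-null tumors numbered in the study's plot of primary tumor latency, PLK2null-7763 stood apart for Itga1 (1151) and Itgad (276), and PLK2null-7748 for Itgb3 (542). Chance flags about 1 in 20 such groups. The share of all genes flagged in this way was not counted, so the 14 flags cannot be called particular to these members. p53null-T11 is also the only p53-null tumor among the 4.

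The claudin-low difference of PLK2null-732, PLK2null-733 and PLK2null-743 differed from that of p53null-T11 for the following members by the interaction term in limma. On the log2 scale the interaction was 10.52 for Itgad, 4.13 for Itga9, 4.06 for Lama2, 3.27 for Lama4, 3.21 for Itga1 and 2.63 for Itga6, and it was -4.37 for Itgb4, -4.09 for Itga10, -3.81 for Itgb8 and -2.73 for Itgb5. The p53-null side of each is p53null-T11 alone. The value of Itgad depends on the pseudocount, since p53null-T11 is listed at 0 and most other tumors are at or below the floor, and it was 6.89 with a pseudocount of 10. Itgad also met the filter on the mean over all tumors only through the claudin-low tumors, where it was high.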

How the results depend on the processing

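No member with a call changed direction in the settings run for it. Of the 11 higher and 9 lower members over the 4 claudin-low tumors, 14 passed the threshold in every setting, as did 16 of 20 within the Plk2-null tumors and 9 of 11 interactions, but 0 of 7 in the genotype comparison. By genotype, 4 members were higher and 1 lower after TMM rescaling, beside 3325 and 3553 of the 17179 genes tested. Without the 4 claudin-low tumors 1 was lower (beside 2970 of 17080 genes), and also when PLK2null-7763 was left out with them (3123 of 17029 genes). With only the 7 named Plk2-null tumors 0 were higher, beside 1972 of the 17050 genes tested. That fit has fewer tumors, and it leaves out several that were much like a named one. Examples are PLK2null-1984 with PLK2null-7750 (Pearson's r 0.979), PLK2null-1987 with PLK2null-7753 (0.982) and PLK2null-1964 with PLK2null-7747 (0.979). The cause of these changes was not tested. Per kilobase of the longest transcript, Itga6 had a median of 2849 in the Plk2-null and 2204 in the p53-null tumors, against 1361 and 1052 per kilobase of merged exons. Leaving out PLK2null-7763 is an alternative chosen after seeing the data in the genotype and interaction fits, as is leaving out p53null-7435. Depth limited Itgad, at or below 3 reads in 27 tumors, and Itgb6, at 1 to 4 reads in the claudin-low tumors. No paired analysis was possible because every tumor carries its own number and the groups share none.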
